A study of Homo sapiens with 12 samples.

Results

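The 9 genes described here encode the hypoxia-inducible factor (HIF) subunits and the proteins that sense oxygen and restrain HIF: HIF1A, EPAS1, ARNT, HIF1AN, VHL, EGLN1, EGLN2, EGLN3 and CITED2. The rule that defines them uses gene names and no measured value. All transcripts carrying one of these names that matched a reference transcript, or shared at least 1 of its splice junctions, were taken, and their abundance was summed per gene. This gave 118 transcripts, of which 36 reached more than 0.5 fragments per kilobase per 1000000 mapped fragments (FPKM) in at least 3 libraries. The whole series held 56537 gene names of this kind, of which 16680 were tested, and all 9 genes were among those tested. The cells were HCT116, a long-established line from a human colorectal cancer, for which the labels give no genetic modification. They were kept in 21% oxygen (0 h) or in 1% oxygen for 1, 2 or 24 h, with 3 libraries of poly(A) RNA at each time, 12 in all. Hypoxia was begun the day after plating, and when the 0 h cells were collected was not given in the sources used here. If the 0 h and 24 h cells had not spent the same time in culture, hypoxia and time in culture cannot be told apart at 24 h. The study calls its replicates biological without saying whether they were separate cultures, so p-values measure the spread between these libraries.

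HIF is a pair of proteins, an oxygen-sensitive alpha subunit (HIF-1α from HIF1A, or HIF-2α from EPAS1) and a constitutive beta subunit (ARNT). With oxygen present, the prolyl hydroxylases PHD2 (EGLN1), PHD1 (EGLN2) and PHD3 (EGLN3) modify the alpha subunit, which the VHL ubiquitin ligase then marks for destruction, while factor inhibiting HIF (HIF1AN) hydroxylates an asparagine and blocks binding of the coactivators p300 and CBP. When oxygen falls the hydroxylases slow down, the alpha subunit accumulates as protein and HIF switches on its targets, among which EGLN1, EGLN3 and CITED2 are known members. CITED2 competes with HIF for p300 and CBP. Most of this control acts on protein, whereas the measurements here are of RNA. In GRCh37, with GENCODE gene bounds, HIF1A lies at chr14:62162231-62214977 and EPAS1 at chr2:46520806-46613836, both on the plus strand, and ARNT at chr1:150782189-150849184 on the minus strand. Of the hydroxylases, EGLN1 lies at chr1:231499497-231558033 and EGLN3 at chr14:34393433-34931980, both on the minus strand, and EGLN2 at chr19:41304901-41314339 and HIF1AN at chr10:102288829-102319755, both on the plus strand. VHL lies at chr3:10183462-10195351 on the plus strand and CITED2 at chr6:139692944-139695785 on the minus strand.

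HIF binds the letters ACGTG or GCGTG, and these were looked for on both strands (as CACGT and CACGC on the other strand) in the RefSeq promoter windows of GRCh38.p14, each running from 250 bases before to 50 bases after a start site. Entries were found for 8 of the 9 genes, 12 promoters in all. The letters occurred in 7 of these 12 promoters and in 48.4% of all 35116 promoters of the same length. The windows below show where they lay before the start site in 5 genes whose RNA differed at 24 h (capitals mark the letters, and CACGTG is 2 overlapping matches, one on each strand). The promoter listed first for each gene is shown. CITED2 had 3 promoters, all with a match, and HIF1A and EGLN2 had 2 each, the second without a match.
EGLN1, chr1:231422288-231422318, minus strand, 13 bases before the start: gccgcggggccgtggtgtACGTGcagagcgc
EPAS1, chr2:46297272-46297312, plus strand, 117 bases before the start: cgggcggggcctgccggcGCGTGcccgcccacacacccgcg
CITED2, chr6:139374778-139374819, minus strand, 153 bases before the start: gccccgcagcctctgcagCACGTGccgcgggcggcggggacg
HIF1A, chr14:61695291-61695331, plus strand, 204 bases before the start: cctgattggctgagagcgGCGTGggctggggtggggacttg
EGLN2, chr19:40799124-40799165, plus strand, 49 bases before the start: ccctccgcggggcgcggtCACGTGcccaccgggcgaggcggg
No match was found in the windows of EGLN3, ARNT and HIF1AN. EGLN1, EPAS1 and CITED2 were higher at 24 h and HIF1A and EGLN2 lower, so genes of both directions held the letters, and EGLN3, with the largest rise of the 9, held none within its window.

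The libraries were closely alike within a time point (Pearson's r across the genes tested at least 0.965, on log2(FPKM + 0.5)). Transcripts under 300 bases held 57.0% to 87.6% of a library's summed FPKM, a share that differed between libraries of the same time. Replicate 3 stood apart from the other 2 at the early times for several HIF targets, with DDIT4 at 226 FPKM in the 1 h replicate 3 against 31.3 and 32.2, and at 537 FPKM in the 2 h replicate 3 against 71.7 and 126. Of 12 HIF target genes examined as a check on the treatment, 11 met the filter on low values without the 24 h libraries, and these 11 rose at 24 h (background 18.3% of all genes tested), with a median log2 fold change of 3.45. Of 8 colorectal epithelial markers 6 were expressed, of which CDH1 and KRT19 rose at 24 h, while VIL1 and CEACAM5 were at or near 0. EPCAM, KRT8, KRT18 and CDX2 were lower at 24 h without passing the test (log2 fold changes from -0.39 to -0.16). The median of the 6 was -0.18. Fibroblast, leukocyte and endothelial markers were at or near 0 apart from COL1A1 and CD68, which rose at 24 h. The summed level of the 5 fibroblast markers went from 1.82–2.16 FPKM at 0 h to 5.77–8.83 FPKM at 24 h, with LUM at 0 throughout. That of the 3 leukocyte markers went from 1.78–2.31 FPKM to 6.88–14.2 FPKM, with PTPRC and CD3E at 0 at both times. Nearly all of these sums came from COL1A1 and CD68, in a line that the study describes as authenticated. What made these 2 genes rise was not tested.

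After 24 h in 1% oxygen the transcripts of 7 of the 9 genes had changed, 5 upwards and 2 downwards (18.3% of all genes tested rose and 23.2% fell). EGLN3, EPAS1, EGLN1 and CITED2 rose more than 2-fold, ARNT rose by less than 2-fold, and HIF1A and EGLN2 fell about 2-fold. HIF1AN and VHL did not pass the test. In bulk RNA such as this, a change in the share of cells that express a gene and a change in RNA per cell cannot be told apart. The same 7 genes, and not HIF1AN or VHL, had 24 h libraries that did not overlap those at 0 h. The share of all genes tested without overlap was not counted, so this describes the 9 only. An unadjusted p under 0.05 (limma) was met by 60% of all genes tested. A change was called at an adjusted p under 0.01 (limma on log2(FPKM + 0.5), Benjamini-Hochberg adjustment over all genes tested), which 41.5% of all genes tested met at 24 h. Of the 9, 6 also passed the study's threshold of a fold above 2, against 18.3% of all genes. On this scale the change of a gene with low FPKM is understated. Rescaled to TPM, the share of each transcript in the total per 1000000, over all transcripts, the test called 3 of the 9, with the calls on EPAS1 (1.17, adjusted p = 0.012), EGLN1 (1.04, adjusted p = 0.04), CITED2 (0.42, adjusted p = 0.42) and ARNT ended. That scaling moved the median of all genes by -0.62. The median log2 fold change of the 9 genes was 0.80, beside -0.05 over all genes tested.

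**Figure D1:**
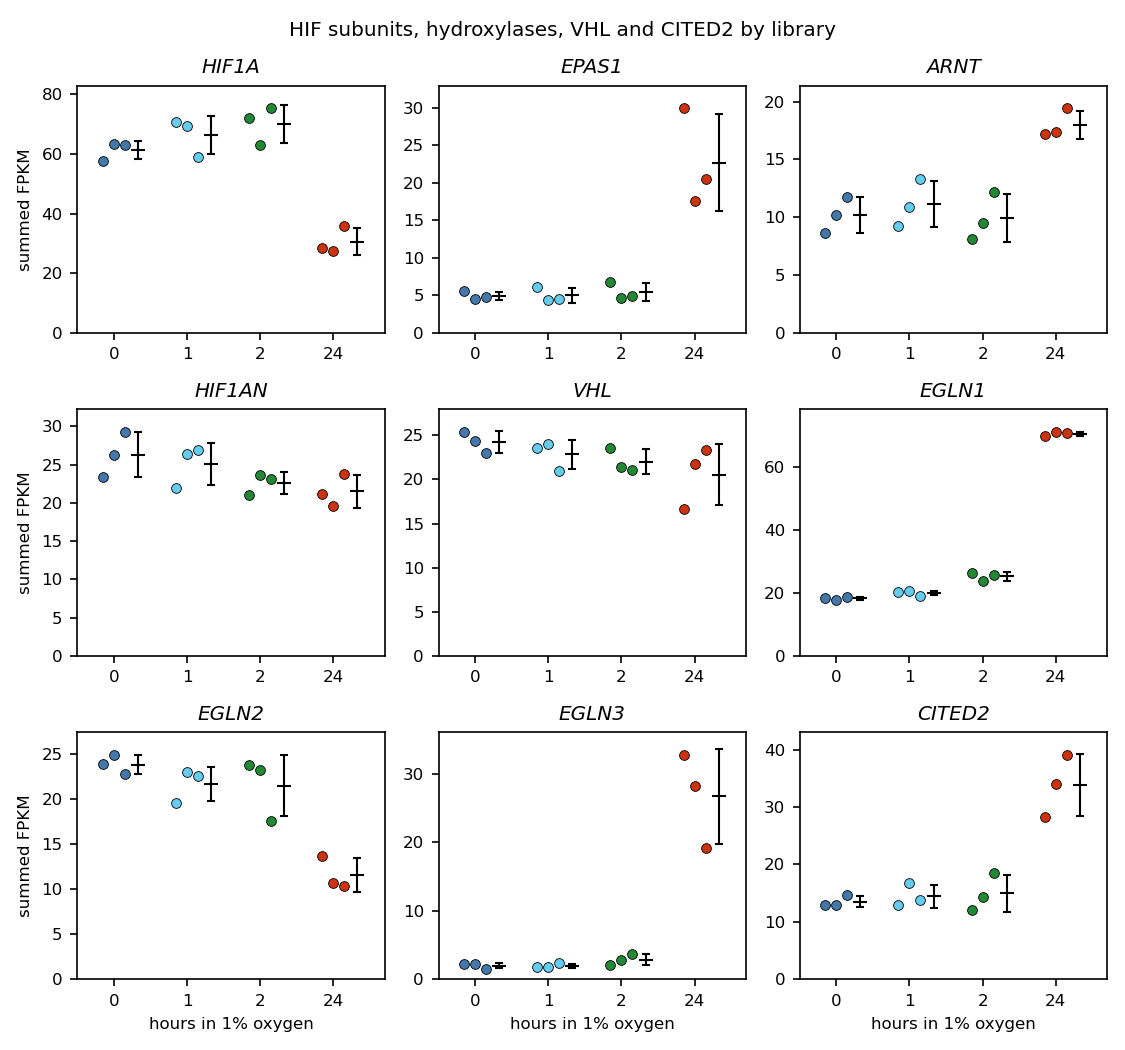
Summed FPKM of each of the 9 genes (vertical axes, each from 0) in the 3 libraries at 0, 1, 2 and 24 h in 1% oxygen (horizontal axes, evenly spaced). Each point is a library, in the order replicate 1 to 3, and the bar beside it is the mean with its SD; at 24 h the points of all genes but HIF1AN and VHL lie clear of those at 0 h.

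HIF1A, the alpha subunit found in most cell types, was the most abundant of the 9 at 0 h. Its 3 libraries held 57.7, 63.2 and 62.9 FPKM at 0 h, and 28.5, 27.3 and 35.8 FPKM at 24 h. Every 24 h library lay below every earlier library, the lowest of which held 57.7 FPKM. HIF1A was lower by a log2 fold change of -1.003 ± 0.12 (SE, n = 3 per time; adjusted p = 2.4e-05, limma). That places HIF1A on the border of a 2-fold change. Without single libraries it ranged from -1.12 to -0.93, and summed over the whole Cufflinks locus, which also holds SNAPC1 and RP11-618G20.1, it was -0.60 (adjusted p = 0.00031). At 1 h and 2 h the means were 66.4 ± 6.49 and 70.1 ± 6.37 FPKM (SD, n = 3), both overlapping the 0 h libraries. Between 2 h and 24 h HIF1A fell by 1.19 on the log2 scale (SE 0.12; adjusted p = 8.5e-06, limma).

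EPAS1 encodes HIF-2α, the alpha subunit of a narrower range of tissues. It was low at 0 h, at 5.48, 4.45 and 4.81 FPKM, and reached 29.9, 17.5 and 20.5 FPKM at 24 h. The groups were far apart, and replicate 1 was the highest at both times. This was a log2 fold change of 2.06 ± 0.205 (SE; adjusted p = 6.4e-06, limma). Part of the excess in the 24 h replicate 1 lay on short retained-intron models, of which 1 (EPAS1-210, named after its values were seen) held 3.85 FPKM there, 0.22 in replicate 2 and 0 in replicate 3. With the transcripts past the FPKM filter alone, the log2 fold change of EPAS1 was 1.99. As HIF1A fell and EPAS1 rose, the ratio of HIF1A to EPAS1 FPKM went from 12.6 ± 1.89 at 0 h to 1.42 ± 0.42 at 24 h (SD, n = 3). The sum of both was 66.2 ± 2.61 FPKM at 0 h and 53.1 ± 7.31 FPKM at 24 h.

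ARNT, the partner shared by both alpha subunits, held 8.63, 10.2 and 11.7 FPKM at 0 h and 17.2, 17.4 and 19.4 FPKM at 24 h. The 24 h libraries were all above the others, the highest of which was 13.3 FPKM at 1 h. Replicate 3 was the highest and replicate 1 the lowest at 0, 1, 2 and 24 h. ARNT rose by a log2 fold change of 0.80 ± 0.17 (SE; adjusted p = 0.0015, limma). The direction flipped to -0.03 (adjusted p = 0.95) with TPM over all transcripts. HIF1A FPKM exceeded ARNT FPKM by a ratio of 6.09 ± 0.67 at 0 h, which had narrowed to 1.69 ± 0.14 at 24 h (SD, n = 3).

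**Figure D2:**
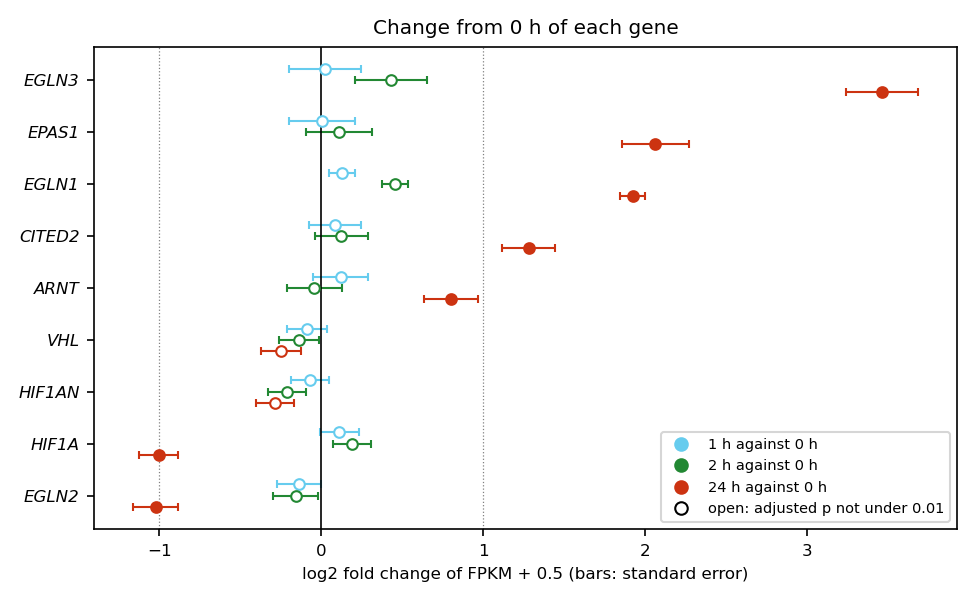
The log2 fold change of FPKM + 0.5 from 0 h (horizontal axis) for each gene (vertical axis) at 1, 2 and 24 h, with its standard error; dotted lines mark a 2-fold change and filled points an adjusted p under 0.01. At 24 h the values run from -1.02 for EGLN2 to 3.46 for EGLN3, and the 1 h and 2 h points are all open.

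The 3 prolyl hydroxylases moved in different directions. EGLN1, whose product PHD2 is regarded as the main hydroxylase of HIF-1α, held 18.5, 17.6 and 18.7 FPKM at 0 h and 70.0, 71.3 and 70.8 FPKM at 24 h. The libraries of each of these times lay close together. Its log2 fold change was 1.92 ± 0.08 (SE; adjusted p = 2.3e-08, limma).

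EGLN3 encodes PHD3 and was the scarcest of the 9 in each of the first 3 time points. It held 2.15, 2.14 and 1.51 FPKM at 0 h and 32.8, 28.2 and 19.2 FPKM at 24 h. The lowest 24 h library was above the highest of the earlier ones, 3.66 FPKM at 2 h. At 3.46 ± 0.22 (SE; adjusted p = 3.8e-07, limma) its log2 fold change was the largest of the 9.

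EGLN2, which encodes PHD1, held 23.9, 24.9 and 22.8 FPKM at 0 h and 13.7, 10.7 and 10.3 FPKM at 24 h. From a level that overlapped VHL and HIF1AN it went to the lowest of the 9. Its log2 fold change was -1.02 ± 0.14 (SE; adjusted p = 6.4e-05, limma). EGLN2 shares its Cufflinks locus with MIA, RAB4B and the readthrough gene RAB4B-EGLN2. Reads of shared exons could have been divided among them, and over the whole locus the log2 change was -0.25 (adjusted p = 0.11).

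The summed hydroxylase transcripts went from 44.1 ± 0.96 FPKM at 0 h to 109.0 ± 8.21 FPKM at 24 h (SD, n = 3), and their make-up differed between these times. EGLN2 made up 54.1 ± 1.47% of the sum at 0 h and 10.6 ± 1.06% at 24 h. EGLN1 went from 41.5 ± 2.04% to 65.1 ± 5.27%, and EGLN3 from 4.37 ± 0.74% to 24.3 ± 4.66%. The libraries of both times did not overlap for any of the 3 shares, for which a two-sided exact permutation test gave p = 0.1, the smallest that 3 against 3 allow. At 2 h EGLN1 made up 51.0 ± 3.47% and EGLN2 43.3 ± 5.00%, and these libraries too lay clear of those at 0 h. At 0 h 56.5% of EGLN1 lay on a short model without a defined coding sequence. With transcripts matched to a protein-coding reference only, EGLN1 went from 24.7 ± 2.18% to 45.1 ± 9.51% and EGLN3 from 5.76 ± 0.90% to 38.8 ± 8.37%, which left both near each other at 24 h. The EGLN2 share then went from 69.6 ± 1.91% to 16.1 ± 1.99%. As differences, EGLN3 was higher by 33.03 percentage points instead of 19.9, and EGLN2 changed by -53.5 instead of -43.5.

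**Figure D3:**
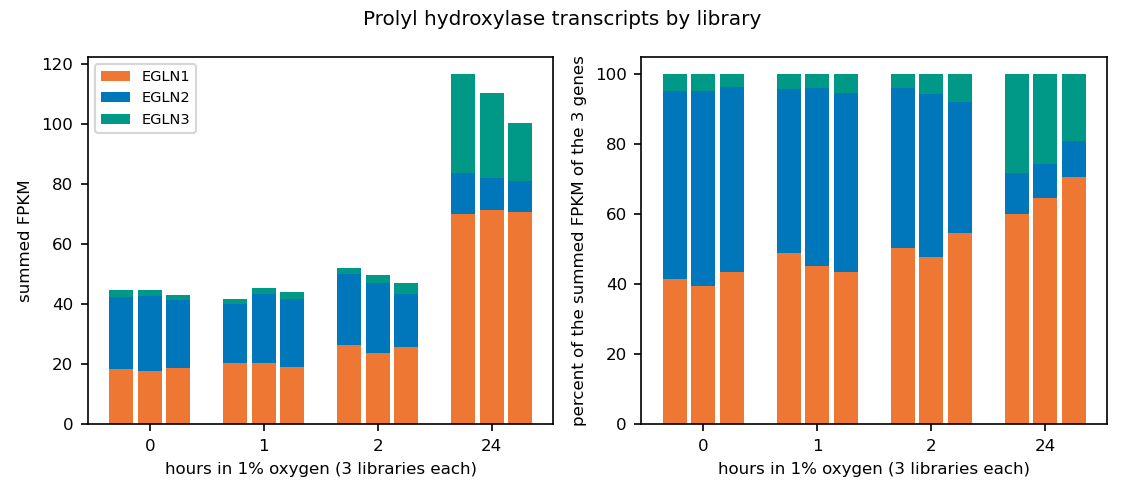
Summed FPKM of EGLN1, EGLN2 and EGLN3 stacked for each of the 12 libraries (left, vertical axis from 0) and the same as a percent of their sum (right), by hours in 1% oxygen. The stack is 100.3 to 117 FPKM at 24 h against 43.0 to 44.7 FPKM at 0 h, and EGLN2 shrinks from between 53.0% and 55.8% of it to between 9.72% and 11.8%.

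HIF1AN, VHL and CITED2 complete the set. HIF1AN held 23.4, 26.2 and 29.3 FPKM at 0 h and 21.1, 19.6 and 23.8 FPKM at 24 h, with overlapping groups and a log2 fold change of -0.28 ± 0.12 (SE; adjusted p = 0.057, limma). VHL held 25.4, 24.4 and 23.0 FPKM at 0 h and 16.6, 21.7 and 23.3 FPKM at 24 h. Its groups overlapped too, and its log2 fold change was -0.25 ± 0.12 (SE; adjusted p = 0.11, limma). These p-values do not show that either gene stayed level. CITED2, the competitor for p300 and CBP, held 13.0, 12.9 and 14.7 FPKM at 0 h and 28.3, 34.0 and 39.1 FPKM at 24 h. Its libraries at 24 h lay well above the highest earlier one, 18.4 FPKM at 2 h. This was a log2 fold change of 1.28 ± 0.16 (SE; adjusted p = 4e-05, limma). With exact matches to the reference only, which leave out the main CITED2 model, it was 0.61 (adjusted p = 0.59) against 0 h and -1.05 (adjusted p = 0.36, limma) against 2 h.

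The order of the 9 levels changed with time. At 0 h HIF1A stood alone at the top with 61.3 ± 3.11 FPKM. HIF1AN (26.3 ± 2.94), VHL (24.3 ± 1.22) and EGLN2 (23.9 ± 1.09) followed, each overlapping the next, and then EGLN1 (18.3 ± 0.57), CITED2 (13.5 ± 0.99), ARNT (10.2 ± 1.55), EPAS1 (4.91 ± 0.53) and EGLN3 (1.93 ± 0.36), which were apart from their neighbours (mean FPKM ± SD, n = 3). At 1 h the order was the same. At 2 h EGLN1 had moved to second place at 25.2 ± 1.29 FPKM, its libraries above those of HIF1AN. At 24 h EGLN1 stood alone at the top with 70.7 ± 0.66 FPKM and EGLN2 alone at the bottom with 11.6 ± 1.86 FPKM. The ranks of EGLN1 count a short model without a defined coding sequence, EGLN1-202, and its models matched to a coding reference held 30.0 FPKM at 24 h, below the mean of CITED2. Between the summed levels of EGLN1 and EGLN2 came CITED2 (33.8 ± 5.41), HIF1A (30.5 ± 4.60), EGLN3 (26.7 ± 6.95), EPAS1 (22.6 ± 6.46), HIF1AN (21.5 ± 2.1), VHL (20.5 ± 3.49) and ARNT (18 ± 1.23), each overlapping the next.

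At the early times the 9 genes had moved little. At 1 h none passed the test (background 0.006% of all genes), and their log2 fold changes ran from -0.14 to 0.13. At an unadjusted p under 0.05 none of the 9 passed at 1 h and EGLN1 alone at 2 h, beside 769 and 2547 of the 16680 genes tested. None passed the adjusted threshold at 2 h either (background 0.024%, and 0.018% with a fold above 2). EGLN1 was the only member of the 9 whose libraries lay clear of those at 0 h, at 1 h and at 2 h. The share of all genes that did so was not counted. With 3 libraries against 3, even full separation gives no exact permutation p under 0.1. EGLN1 held 20.4, 20.5 and 19.2 FPKM at 1 h and 26.3, 23.8 and 25.7 FPKM at 2 h, each above the highest 0 h library. At 1 h the log2 fold change was 0.13 (SE 0.08; adjusted p = 1, limma), and at 2 h it was 0.45 (SE 0.08; adjusted p = 0.037, limma), short of the threshold. EGLN3 held 2.06, 2.75 and 3.66 FPKM at 2 h, a log2 difference of 0.43 (SE 0.22; adjusted p = 0.38, limma), with replicate 3 the highest as for the HIF targets above. Under TPM over all transcripts EGLN1 was at -0.47 at 1 h and -0.59 at 2 h and EGLN3 at -0.35 at 2 h, beside shifts of -0.53 and -0.87 in the median of all genes at 1 h and 2 h. The bulk of the change fell between 2 h and 24 h. There EGLN3 rose by 3.03, EPAS1 by 1.95, EGLN1 by 1.47, CITED2 by 1.16 and ARNT by 0.84 on the log2 scale, and EGLN2 fell by 0.86 (largest adjusted p = 0.0013, limma). With HIF1A this made 7 of 9 genes changed (background 36.6%), of which 5 by more than 2-fold (background 14.7%). Under TPM over all transcripts 3 of these calls remained, those on EPAS1, EGLN1 and EGLN3, while EGLN2 was at -0.59 (adjusted p = 0.45) and CITED2 at 1.29 (adjusted p = 0.034, limma). Over the whole Cufflinks locus EGLN2 was at -0.17 (adjusted p = 0.28, limma). This comparison and that with 0 h share the 24 h libraries.

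The genes whose pattern over the 12 libraries was most like each of the 9 were taken by Pearson's r on log2(FPKM + 0.5) among 14360 genes with a mean FPKM of at least 1. EGLN1 ran closest to BNIP3 (r = 0.994), itself a HIF target, then INSIG2 and ALKBH5. EGLN3 ran closest to ANKZF1 (0.991), RAB20 and UCA1. For EPAS1 it was RNASE1 (0.989), for CITED2 MXRA7 (0.985) and for ARNT ADAMTS13 (0.990). Of the falling pair, HIF1A was most like RFXAP (0.992) and EGLN2 most like PGAM5 (0.988). HIF1AN (HEYL, 0.951) and VHL (RGPD4, 0.951) had no partner as close. These values describe 12 libraries in which the 24 h step dominates, and many genes share that step.

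The transcripts behind these sums were then taken one by one. Of the 36 transcripts past the filter, 4 had met it only through the 24 h libraries, so the counts over them are given as a description. At transcript level 13 of the 36 changed at 24 h at an adjusted p under 0.01 (limma on log2(FPKM + 0.5)), where 14.6% of all transcripts tested did, and 11 did of the 32 that met the filter without 24 h. In a test of each transcript against the rest of its gene, 5 of the 9 genes held a transcript whose proportion changed (adjusted p under 0.05), where 34.3% of the genes with more than 1 transcript did. Only HIF1A and EGLN1 did so through a transcript that met the filter without 24 h, and for EGLN3, HIF1AN and ARNT the transcript was 1 of those 4. The number was unstable, being 2 to 5 when single libraries were left out, so the proportions are given below with that limit. Cufflinks divides shared reads among models by estimation, and transcripts that differ by few bases are the least certain.

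HIF1A was carried mainly by HIF1A-202 and HIF1A-203, which differ inside the coding sequence by 3 bases at the start of exon 2. They arise from tandem acceptors, shown here for GRCh37 with the 3 bases in capitals that only HIF1A-203 keeps.
chr14:62187075-62187119, plus strand: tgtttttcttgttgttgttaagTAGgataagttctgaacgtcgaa
HIF1A-203 therefore encodes 827 codons against 826 in HIF1A-202. HIF1A-202 held 28.4, 34.8 and 35.2 FPKM at 0 h and 15.5, 13.7 and 19.6 FPKM at 24 h, and fell by 1.00 on the log2 scale (adjusted p = 0.00053, limma). The main HIF1A-203 model held 16.9, 15.5 and 17.5 FPKM at 0 h and 3.38, 5.14 and 4.90 FPKM at 24 h. It fell by 1.80 (adjusted p = 8.3e-05, limma), more than HIF1A-202, and against the rest of the gene it fell by 1.04 on the log2 scale (adjusted p = 0.020, limma). Its share of HIF1A went from 27.2 ± 2.40% to 14.8 ± 3.61%, while that of HIF1A-202 was 53.5 ± 3.63% and 53.1 ± 2.64% (SD, n = 3). Without the 0 h replicate 1 the adjusted p for the proportion was 0.071, without the 0 h replicate 3 it was 0.058, and without the 24 h replicates 1 or 3 it was 0.056 or 0.052. A second HIF1A-203 model past the filter did not pass the test of proportions (0.40, adjusted p = 0.7, limma). Over all models matched to HIF1A-203 the share went from 32.6 ± 6.40% to 21.1 ± 7.26% (SD, n = 3), with overlapping libraries. A short model without a defined coding sequence, HIF1A-210, is named here because of its values. It was listed at 0 in 8 of the 9 earlier libraries, held 3.43 FPKM in the 0 h replicate 2, and held 4.47, 2.51 and 1.94 FPKM at 24 h. It met the filter only through the 24 h libraries, so no test of it is given.

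EGLN1 was divided between the coding transcript EGLN1-201 (426 codons), a variant of it with at least 1 other junction, and EGLN1-202, a model of 829 bases that starts in a different first exon and has no defined coding sequence. The junctions of both first exons with exon 2 are printed for GRCh37 (minus strand), with the last 15 bases of the first exon in capitals and the first 15 bases of the shared exon 2, chr1:231509831-231509845, in lower case.
EGLN1-201, first exon ending at chr1:231556744-231556758: AATGGCCGGACGAAAgccatggttgcttgt
EGLN1-202, first exon ending at chr1:231555922-231555936: TATCCTCCCAATTTGgccatggttgcttgt
EGLN1-202 held 10.3, 10.4 and 10.3 FPKM at 0 h and 44.3, 41.2 and 36.5 FPKM at 24 h, which was 56.5 ± 2.08% and 57.6 ± 5.87% of the gene. It rose by 1.92 on the log2 scale (adjusted p = 3.7e-06, limma). EGLN1-201 held 5.66, 5.37 and 6.23 FPKM at 0 h and 12.01, 14.6 and 17.1 FPKM at 24 h, a rise of 1.26 (adjusted p = 0.00036, limma). Its variant went from 2.58, 1.87 and 2.15 FPKM to 13.7, 15.4 and 17.2 FPKM, a rise of 2.56 (adjusted p = 4.5e-05, limma). All 3 models rose without overlap, and EGLN1-201 rose the least. Under TPM over all transcripts EGLN1-201 was at 0.40 (adjusted p = 0.4) and EGLN1-202 at 1.04 (adjusted p = 0.077, limma), both short of the threshold. Against the rest of the gene EGLN1-201 fell by 0.86 (adjusted p = 0.032, limma), from 31.5 ± 1.62% to 20.6 ± 3.47% of EGLN1. That call was lost in 5 of the 6 fits without a single library, the exception being the one without the 24 h replicate 3 (adjusted p 0.072 to 0.092 in the other 5). With the models matched to a coding reference alone, EGLN1 rose from 7.96 FPKM to 30.0 FPKM, a log2 fold change of 1.84 (adjusted p = 1.8e-07, limma).

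EGLN3 came from EGLN3-201 and EGLN3-209, which share exons 2 to 4 and use different splice donors in exon 1. The donors are shown for GRCh37 (minus strand), with the first 2 bases after the exon in capitals.
EGLN3-201, chr14:34419587-34419616: aaggagaggtctaagGTaggacgcgctcgg
EGLN3-209, chr14:34419869-34419898: ccctgtctgcacgagGTgggcttctgctac
The donor of EGLN3-209 lies within the coding part of exon 1 of EGLN3-201, and the coding sequence shortens from 239 to 145 codons without a change of frame. EGLN3-201 held 0.84, 0.42 and 0.96 FPKM at 0 h and 17.6, 12.5 and 10.1 FPKM at 24 h, a rise of 3.47 on the log2 scale (adjusted p = 1.8e-05, limma). EGLN3-209 held 1.08, 0.87 and 0.29 FPKM at 0 h and 14.4, 14.3 and 6.16 FPKM at 24 h, a rise of 3.24 (adjusted p = 0.00031, limma). Every 24 h library was above every 0 h library for both, and at 24 h the shorter form made up 42.2 ± 9.34% of EGLN3 (SD, n = 3). EGLN3-205, an unspliced model of 2849 bases that runs from exon 1 into the first intron, held 0.23, 0.35 and 0.22 FPKM at 0 h and 0.29, 0.81 and 1.39 FPKM at 24 h. It made up 13.9 ± 3.05% of the gene at 0 h and 3.67 ± 3.24% at 24 h (SD, n = 3). EGLN3-205 met the filter only through the 24 h libraries, so no test of it is given.

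**Figure D4:**
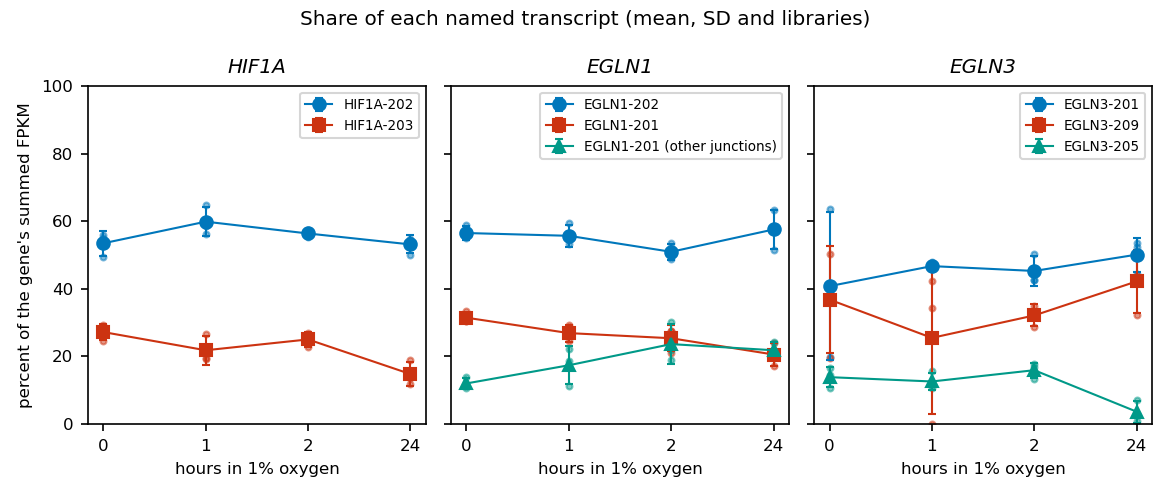
Share of the named transcripts in the summed FPKM of HIF1A, EGLN1 and EGLN3 (vertical axis, percent) at 0, 1, 2 and 24 h in 1% oxygen (horizontal axis, evenly spaced), as mean, SD and single libraries; "other junctions" marks a variant of the named reference. The main HIF1A-203 model and EGLN3-205 are lower at 24 h than at 0 h, at 14.8% and 3.67%, and EGLN1-201 and its variant meet at 20.6% and 21.8%.

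The remaining genes were simpler. EGLN2 lay almost wholly on EGLN2-201, at 90.0% of the gene at 0 h and at 24 h, and this transcript fell by 1.02 on the log2 scale (adjusted p = 0.00088, limma). It was at -1.75 under TPM over all transcripts, just short of the threshold (adjusted p = 0.01 after rounding, limma). CITED2 lay mainly on a variant of CITED2-201 of 1947 bases, at 96.4 ± 6.10% at 0 h and 97.1 ± 3.31% at 24 h but 78.9 ± 18.9% at 2 h (SD, n = 3), where the reference form held 5.27 and 4.91 FPKM in replicates 2 and 3. The variant rose by 1.29 (adjusted p = 0.00041, limma), and was at 0.43 (adjusted p = 0.39), short of the threshold, under TPM over all transcripts. Of EPAS1, 2 models of EPAS1-201 rose, a variant with other junctions by 2.00 (adjusted p = 0.00069) and the reference form by 1.76 (adjusted p = 0.0038, limma, a call lost in 6 alternatives), and neither passed the test of proportions. Under TPM over all transcripts the variant was at 1.09 (adjusted p = 0.048) and the reference form at 0.84 (adjusted p = 0.1, limma), both short of the threshold. ARNT was spread over ARNT-202 (35.4% at 0 h), ARNT-201 (26.1%) and ARNT-208 (14.05%), none of which passed the test alone (lowest adjusted p = 0.018, limma). A long ARNT variant of 7801 bases, chosen for its values, went from 0, 0.11 and 0.36 FPKM at 0 h to 1.47, 1.83 and 1.35 FPKM at 24 h. HIF1AN had a variant of 17593 bases, likewise chosen for its values, at 0.02, 0.10 and 0.14 FPKM at 0 h and 1.08, 1.17 and 1.52 FPKM at 24 h. Both variants met the filter only through the 24 h libraries, so no test of them is given. For VHL, VHL-202 made up 42.4 ± 11.3% at 0 h and 33.1 ± 7.10% at 24 h, and no VHL transcript passed either test. Models matched to VHL-203, which has no defined coding sequence, made up 36.8 ± 9.60% and 42.2 ± 6.42% (SD, n = 3).

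The wider pathway was examined through lists of partners and regulators. In the VHL ubiquitin ligase 3 of 5 genes fell at 24 h and none rose (background 41.5% changed and 23.2% lower), with a median log2 fold change of -0.41. TCEB1 (elongin C) fell by 0.69 (adjusted p = 0.00037), the scaffold CUL2 by 0.54 (adjusted p = 0.00018) and NEDD8, whose product activates the scaffold, by 0.41 (adjusted p = 0.0062, limma), each by less than 2-fold. TCEB2 and RBX1 did not pass. With transcripts matched to a protein-coding reference only, CUL2 was at -0.38 (adjusted p = 0.016) and NEDD8 at -0.34 (adjusted p = 0.017, limma), both short of the threshold. Under TPM over all transcripts NEDD8 was at -1.28, further from 0 but short of the threshold (adjusted p = 0.021, limma). NEDD8 lost its call in 5 of the 6 fits without a single library (adjusted p 0.01 to 0.029), the exception being the one without the 24 h replicate 1. These 3 genes are named after their values were seen, as are others below that changed by less than 2-fold. None of the 5 coactivators (EP300, CREBBP, NCOA1, NCOA2 and CDK8) passed the test, and at an unadjusted p under 0.05 EP300 and NCOA1 did (2 of 5, where 60% of all genes did), with a median log2 fold change of 0.15 over the list. Among 11 other bHLH-PAS factors, the family of HIF1A and ARNT, 9 were tested. NPAS2, a partner of the clock protein BMAL1, rose from 8.14 ± 1.37 to 17.3 ± 2.24 FPKM (SD, n = 3), a log2 fold change of 1.05 (adjusted p = 1e-04, limma) that was 0.21 (adjusted p = 0.68) under TPM over all transcripts. SIM2 rose by 0.55 (adjusted p = 0.0069) and ARNTL2 fell by 0.62 (adjusted p = 0.0074, limma), calls that were lost in at least 9 alternatives each, with SIM2 at -0.24 under TPM over all transcripts. HIF3A, the third alpha subunit, was at 0.02 FPKM at 0 h and 0.11 FPKM at 24 h, below the filter. CITED1 and CITED4, the relatives of CITED2, did not pass, with log2 values of -0.70 (adjusted p = 0.034) and 0.83 (adjusted p = 0.014, limma).

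Of 10 other regulators of HIF stability, 2 rose and 3 fell (background 41.5% changed), with a median log2 fold change of 0.29. SIAH2, a ubiquitin ligase known to target PHD1 and PHD3, rose from 20.7 ± 1.18 to 44.6 ± 5.71 FPKM (SD, n = 3), by 1.08 on the log2 scale (adjusted p = 5.1e-06, limma), and by 0.22 (adjusted p = 0.68), short of the threshold, under TPM over all transcripts. HSP90AA1, a chaperone that stabilises HIF-1α, fell from 2437 ± 243 to 1114 ± 98.1 FPKM, by 1.13 (adjusted p = 2.2e-05, limma). HSP90AB1 fell by 0.996 (adjusted p = 5e-06), and the SUMO protease SENP1 fell by 0.84 (adjusted p = 3.9e-05). GNB2L1 (RACK1), which promotes HIF-1α turnover independently of oxygen, rose by 0.54 (adjusted p = 0.00048, limma), a direction that flipped to -0.34 with TPM over all transcripts. SIAH2 and HSP90AA1 were the members of this list past 2-fold. HIF1A-AS2, an antisense RNA of the HIF1A locus, was listed at 0 in all libraries at 0 h and 1 h, at 0.05, 0 and 0 FPKM at 2 h, and at 1.48, 1.099 and 0.91 FPKM at 24 h. It met the filter only through the 24 h libraries, so no test of it is given. The study's libraries and transcript assembly used the strand of the reads. HIF1A-AS1 was below the filter.

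**Figure D5:**
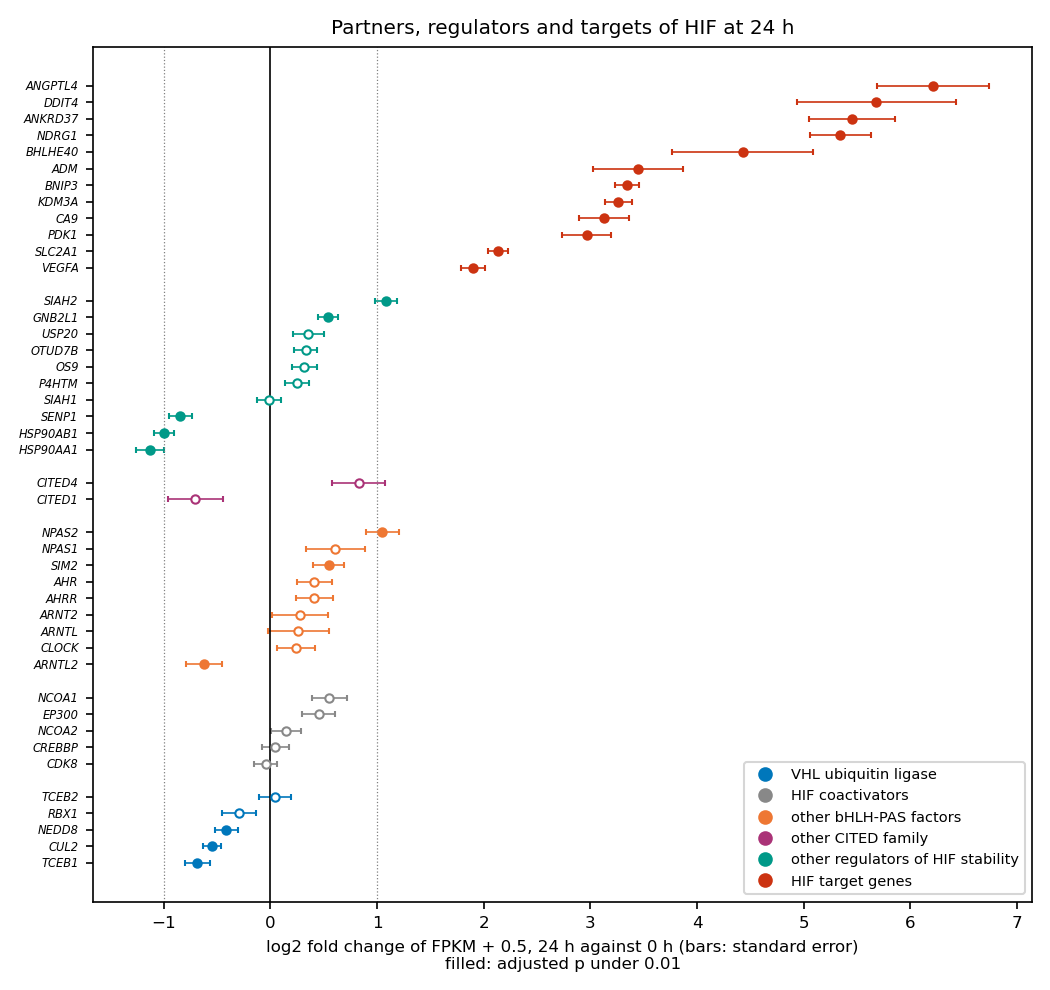
The log2 fold change of FPKM + 0.5 at 24 h against 0 h (horizontal axis) with its standard error for partners, regulators and targets of HIF (vertical axis, grouped and coloured by list); filled points have an adjusted p under 0.01. The 12 targets, among them CA9, which met the filter on low values only through 24 h, lie between 1.90 and 6.21, whereas the 5 coactivators lie between -0.04 and 0.55 and are all open.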

How the data were processed

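The authors aligned strand-specific paired reads to hg19 (GRCh37) with Mapsplice, assembled transcripts per sample with Cufflinks, merged the models and compared them with Ensembl. The deposited values are FPKM per transcript and library, with tables of class code, nearest reference and locus. The submitters' processing notes also name CASAVA 1.8.2. Read counts were not used here, so the depth behind a value is unknown and the precision given is the spread between 3 libraries.

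FPKM of transcripts with class code = or j was summed per gene name, as deposited, without rescaling. Genes above 0.5 FPKM in at least 3 libraries were tested with limma 3.58.1 (lmFit, eBayes with trend, two-sided) in R 4.3.3 on log2(FPKM + 0.5). The fit took in all 12 libraries, and p-values were adjusted by the Benjamini-Hochberg method over every gene tested. Proportions were tested as log2 of a transcript against the rest of its gene, each + 0.5 FPKM. For transcript names and types the GENCODE release 44 annotation, lifted to GRCh37, was used. Tables and exact tests were made with Python 3.11.15, scipy 1.17.1, pandas 2.3.3 and numpy 2.4.6, and figures with matplotlib 3.10.9. Both fits were tested on simulated data. The gene fit recovered 69% of changes of 1 on the log2 scale and 94% of changes of 2. The proportion fit recovered 62% of the transcripts raised at 24 h, so a proportion that did not pass may still have changed.

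The genes and lists were chosen with earlier results of these data known. Named transcripts hold at least 10% of their gene's mean FPKM at 0 h or 24 h. The exceptions are the CITED2 reference form, named for its values at 2 h, the second HIF1A-203 model and those said to be chosen for their values. Genes of the lists are named where they passed the test with a fold above 2, and otherwise after their values were seen. For each gene the 3 most alike could be named. At 0 h and 2 h, libraries sharing a replicate number departed from their group means in the same direction (correlation across genes at least 0.129 in all 3 pairs, mean 0.246), which met the rule for pairs. The pairing comes from the numbers in the labels. The values printed are from the fit without a replicate block, and the block changed no call at 2 h. For 24 h against 0 h the lowest of the 3 correlations was -0.000785. Alternatives covered the pseudocount, the filter, the transcripts summed, the scaling, the libraries fitted, a replicate block and leaving out each library.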

Additional observations from a re-analysis of the deposited data

Results flagged for a closer look

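In 2 of the 9 genes the difference from 0 h had opposite signs at 2 h and 24 h, and the change between these times passed the test itself. HIF1A was at a log2 fold change of 0.19 at 2 h (adjusted p = 0.46, limma) and at -1.003 at 24 h, a change of -1.19 from 2 h to 24 h (adjusted p = 8.5e-06, limma), with every 24 h library below every 2 h library. ARNT was at -0.04 at 2 h (adjusted p = 0.93, limma) and at 0.80 at 24 h, a change of 0.84 (adjusted p = 0.0013, limma), with every 24 h library above every 2 h library. Under TPM over all transcripts both changes from 2 h to 24 h lost their call, with HIF1A at -0.95 (adjusted p = 0.19, limma) and ARNT at 0.96 (adjusted p = 0.14, limma). Neither 2 h value passed the test, so the opposite sign at 2 h is itself not established.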

How the results depend on the processing

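The 7 changed genes at 24 h against 0 h numbered 7 without any single library and 6 or 7 under all other alternatives but 1. TPM over all transcripts, a total of which short RNAs hold most, shifted the median of all genes by -0.53 at 1 h, -0.87 at 2 h, -0.62 at 24 h and 0.15 between 2 h and 24 h. It left 3 genes changed at 24 h, 3 past 2-fold, 3 and 3 between 2 h and 24 h, and 6 transcripts, ending the calls on EGLN1 (1.04, adjusted p = 0.04), EPAS1 (1.17, adjusted p = 0.012), CITED2 (0.42), NPAS2 (0.21), SIAH2 (0.22) and NEDD8 (-1.28) at 24 h. It also reversed EGLN1 at 1 h (-0.47) and 2 h (-0.59), EGLN3 (-0.35) and HIF1A (-0.88) at 2 h, ARNT (-0.034), SIM2 (-0.24) and GNB2L1 (-0.34) at 24 h, and HIF1AN (0.13) and VHL (0.10) between 2 h and 24 h. With exact reference matches only, which leave out the main CITED2 model, CITED2 lost its call at 24 h (0.61, adjusted p = 0.59) and was at -1.05, and HIF1AN at 0.13, between 2 h and 24 h. The sign of ARNT at 2 h also turned with protein-coding transcripts only (0.010) and without single libraries (lowest -0.19, highest 0.087), and that of VHL between 2 h and 24 h without single libraries (lowest -0.21, highest 0.032). Genes past 2-fold at 24 h numbered 4 to 6 without single libraries, as HIF1A and EGLN2 lie on that border. The proportion test gave 3 genes with a filter of 1 FPKM, 2 on the 6 libraries of the contrast alone, 2 to 5 without single libraries and 5 with diffSplice. Transcripts that met the filter only through 24 h enter these counts, which are given as a description. Of the 5 genes of the main fit, 2 were called through a transcript that met the filter without 24 h. For protein-coding transcripts only, an alternative chosen after seeing the data, the EGLN2 and EGLN3 shares changed by -53.5 and 33.03 percentage points. With the replicate number as a block, the counts of changed genes at 24 h stayed at 7 and 6, and 14 transcripts and 4 genes by proportion were called (not ARNT). EGLN1 at 2 h then had an adjusted p of 0.026 (limma). The block ended no other call on a gene or transcript named. The cause of these shifts was not tested.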
